A study of Mus musculus with 16 samples.

Results

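The Dlk1-Dio3 imprinted cluster miRNAs were followed in the serum of male mice. The members were all mouse miRNAs on the array whose number belongs to the cluster, with any letter or arm, from miR-127 and miR-134 to miR-3070, miR-3071 and miR-3072. This rule used names alone and found 107 of the 1881 mouse miRNAs on the array, read by 276 of its 4415 miRNA probes. Serum was taken at 4, 8, 36 and 58 weeks of age, with 4 mice per age, to ask which circulating miRNAs change as mice age. Each serum was labelled with Cy3 and measured on 1 Agilent miRNA array. No treatment or genotype separates the groups, and the strain is not given in the sources used here. All arrays of 4 and 8 weeks lay on slide 1 and all arrays of 36 and 58 weeks on slide 2, so that age and slide cannot be told apart between those pairs of ages.

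The cluster lies between the genes Dlk1 and Dio3, in a domain where the chromosome inherited from the mother makes the noncoding RNAs Meg3, Rian and Mirg and the chromosome from the father makes the proteins Dlk1, Rtl1 and Dio3. The miRNAs are processed from the maternal noncoding RNAs, and some lie antisense to Rtl1 and can direct its cleavage. They are known chiefly from brain, placenta and embryo, and several have been studied in dendrite growth and in muscle.

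The 8 members detected on at least 3 arrays are shown first, because the results turn on them and because their base composition divides them. The sequences are the RefSeq mature miRNAs (GRCm38.p6), written 5′ to 3′, with the seed (bases 2 to 8, the part that pairs with target RNAs) in capitals.
miR-494-3p: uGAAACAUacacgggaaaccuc
miR-487b-5p: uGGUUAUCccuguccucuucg
miR-485-3p: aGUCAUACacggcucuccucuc
miR-1188-3p: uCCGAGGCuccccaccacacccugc
miR-540-5p: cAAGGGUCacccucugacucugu
miR-329-3p: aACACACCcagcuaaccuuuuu
miR-3072-5p: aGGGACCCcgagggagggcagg
miR-370-3p: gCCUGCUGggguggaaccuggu

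No 2 of these 8 share a seed, and none shares its seed with another member. The seed of miR-329-3p is also that of 1 miRNA on the array from outside the cluster. Among the 103 members with a RefSeq mature sequence there were 95 distinct seeds, of which 8 were shared by 2 members each. The sequences differ in their bases. miR-1188-3p has 14 C among its 25 bases, miR-485-3p has 9 C and 3 G, and miR-329-3p has 8 C and 1 G. miR-3072-5p has 12 G and 5 C among 22 bases, and miR-370-3p has 10 G and 5 C. miR-494-3p is rich in A, with 9 A, 6 C and 4 G.

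On GRCm38.p6, 102 members lie on chromosome 12 in 54 hairpins, within 176 kb between 109571990 and 109747960. The only other located member is miR-496b, which the naming rule takes in and which lies on chromosome 19. It was not detected. The other 4 members, miR-376c-3p, miR-485-5p, miR-487b-3p and miR-539-3p, were not matched to a mature sequence. The span of Rtl1 (chr12:109564900-109604418) holds 25 members, of which 4 were detected on at least 1 array. The span of Rian (chr12:109603945-109661716) holds 6 members and 2 were detected, and the span of Mirg (chr12:109734981-109749458) holds 18 members and 3 were detected. The remaining 53 lie outside these spans, and 11 of them were detected. miR-540-5p (chr12:109586085-109586107) lies in the Rtl1 span, and miR-1188-3p (chr12:109611877-109611901) and miR-370-3p (chr12:109618305-109618326) in that of Rian. miR-329-3p (chr12:109713541-109713562), miR-494-3p (chr12:109715367-109715388), miR-487b-5p (chr12:109727347-109727367) and miR-485-3p (chr12:109734946-109734967) lie between Rian and Mirg. miR-3072-5p (chr12:109747893-109747914) is in Mirg, in the last hairpin of the cluster.

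**Figure D1:**
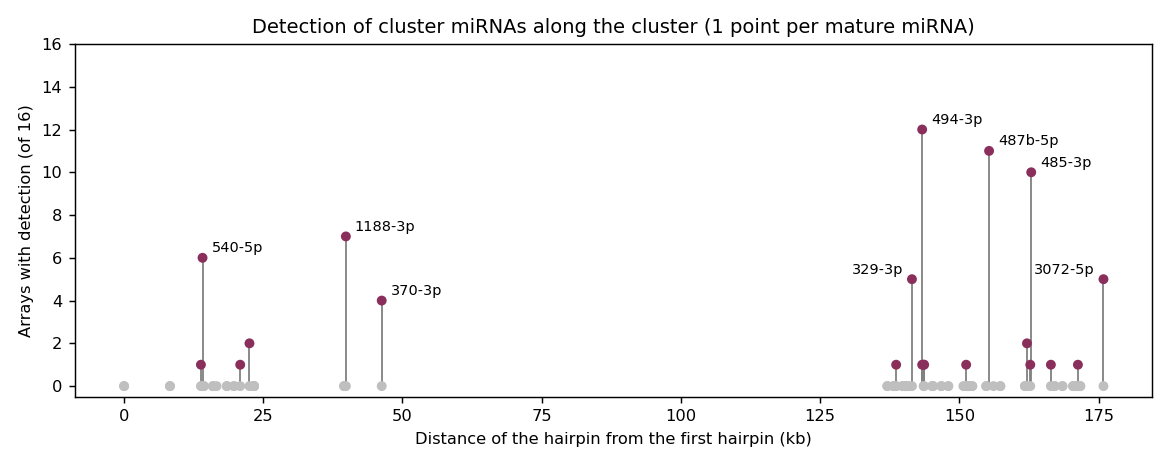
Number of the 16 arrays on which each of 102 cluster miRNAs on chromosome 12 was detected (vertical axis), against the distance of its hairpin from the first hairpin in kb (horizontal axis). Each point is 1 mature miRNA, and grey points were detected on no array; the 8 labelled members lie at both ends of the 176 kb, the 3 most often detected in its distal part.

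Most of the cluster was not seen in serum. By the deposited detection call, 20 of 107 members (18.7%) appeared on at least 1 array, against 552 of 1774 other miRNAs (31.1%) and 30.4% of all 1881. The other 87 were detected on none, and 52 of these had a mean background-subtracted signal below 0 on every array. None of the 20 was detected on all 16 arrays, and 3 were detected on at least 10. The detected members came from 19 hairpins, with both arms detected only for miR-494. Of the 3p arms 14 of 54 were detected, and of the 5p arms 6 of 52. No difference in detection was tested.

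The count rested on few arrays. Cluster members detected numbered 16, 3, 5 and 5 on replicates 1 to 4 of 4 weeks, 3, 2, 3 and 4 at 8 weeks, 2, 3, 6 and 7 at 36 weeks, and 6, 4, 1 and 4 at 58 weeks. In order of age the means were 7.25 ± 5.91 (SD, n = 4), 3 ± 0.816, 4.5 ± 2.38 and 3.75 ± 2.06 members per array, and all 4 ages overlap. The SD of the negative-control spots measures the spread of array background and is called background here. It reached 59.3 (36-week replicate 4), 19.1 and 7.45 (4-week replicates 1 and 4), and ran from 1.82 to 4.45 on the other 13 arrays. The scanner software marked these 3 arrays for evaluation. Of the 20 detected members, 11 were detected on marked arrays alone, and 9 of those on 4-week replicate 1 alone. On the 13 unmarked arrays 9 members (8.41%) were detected, against 464 other miRNAs (26.2%).

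**Figure D2:**
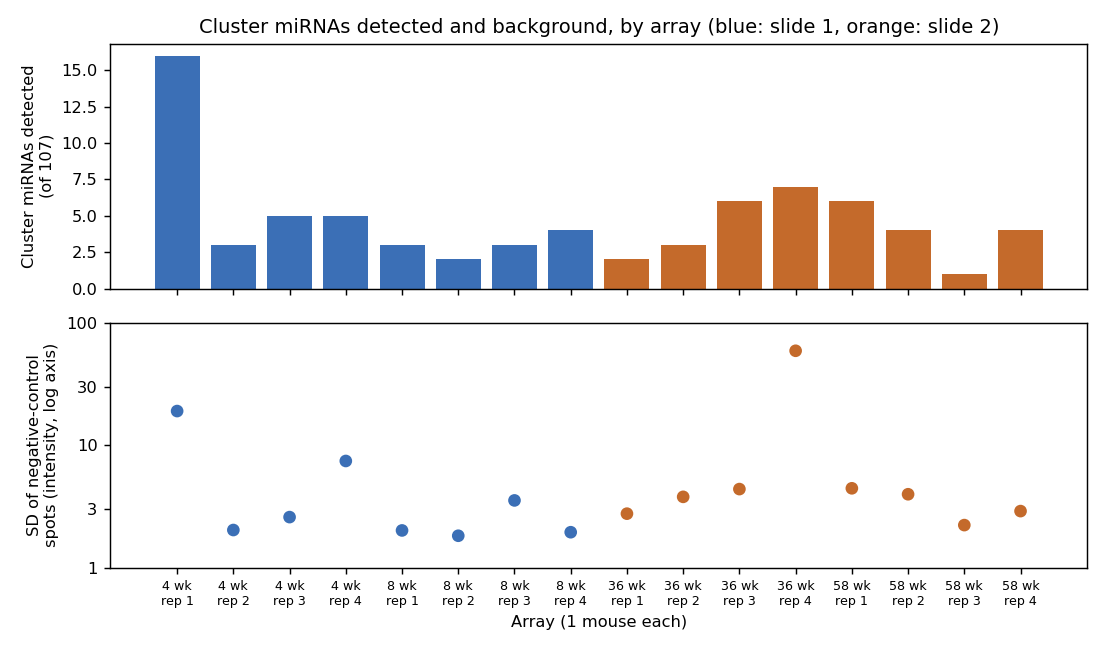
Number of the 107 cluster miRNAs detected on each array (top, bars) and the SD of its negative-control spots in intensity units on a log axis (bottom, points), blue for slide 1 and orange for slide 2. The 16 members detected on 4-week replicate 1 stand above 1 to 7 on the other arrays, and 36-week replicate 4 has the highest background at 59.3.

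The detected members fell into 2 patterns over the arrays. In the first were 17 of the 20, whose 2 highest signals lay on 36-week replicate 4 and 4-week replicate 1, the arrays of highest background. The other 3, miR-494-3p, miR-3072-5p and miR-370-3p, had their lowest signal on 36-week replicate 4. In the first pattern 11 were detected on marked arrays alone, so that their place in it was largely set by how they were called. Over all 107 members the first pattern held for 44 and the second for 62, with 1 in neither. Over all miRNAs on the array these shares were 36.5% and 61.4%, so that the members as a whole divided much as the array did.

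miR-494-3p, a member studied in mitochondrial biogenesis during muscle differentiation, was the one detected most often, on 12 arrays. Detection was called in 2, 4, 3 and 3 of 4 mice in order of age. Its log2 scaled signal, on a scale whose floor is 1.92, was 4.21, 5.45, 5.50 and 2.81 at 4 weeks and 4.56, 5.24, 4.43 and 5.63 at 8 weeks. It was 3.99, 4.06, 5.60 and 1.92 at 36 weeks, and 4.62, 3.56, 4.13 and 3.78 at 58 weeks. The means were 4.49 ± 1.27 (SD, n = 4), 4.97 ± 0.57, 3.89 ± 1.51 and 4.02 ± 0.46 in order of age, and all 4 ages overlap. It was undetected on 58-week replicate 2 and on the 3 marked arrays, among them 36-week replicate 4, where its unscaled signal was -71.0. Both of its probes were highest on 8-week replicate 4, then on 4-week replicate 3, and lowest on 36-week replicate 4.

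miR-3072-5p, from the distal end of the cluster, was called detected in 2 of the 4-week mice, in 3 of the 8-week mice and in no older mouse. Its log2 scaled signal was 1.92, 4.96, 4.20 and 1.92 at 4 weeks and 3.59, 3.15, 1.92 and 4.75 at 8 weeks. It was 2.77, 3.28, 2.57 and 1.92 at 36 weeks, and 1.92, 1.92, 2.003 and 1.92 at 58 weeks. The high values were thus on unmarked arrays of the younger ages, which also held values at the floor. The means were 3.25 ± 1.57 (SD, n = 4), 3.35 ± 1.17, 2.63 ± 0.56 and 1.94 ± 0.04, the last almost wholly at the floor, which understates its spread. Set against the lowest detected signal where that was higher, 8-week mice had a signal 1.16-fold that of 58-week mice. This was 0.892-fold to 1.28-fold with 1 array of 58 weeks left out, and 0.840-fold to 1.62-fold with 1 of 8 weeks. It thus fell below 1-fold without some arrays. Nor is it a strict lower bound, because the value of 8-week replicate 3 was itself raised to the floor. Against 36 weeks no such fold above 1 was reached unless 36-week replicate 4 was left out (1.38-fold). On the 5 arrays that detected miR-3072-5p, the lowest positive scaled signal of any detected miRNA was 0.574 to 1.27. On the other arrays of slide 1 it was 24.5 and 0.627 (4-week replicates 1 and 4) and 3.62 (8-week replicate 3). On slide 2 it reached 201.8, and was 6.12 or more except on 36-week replicate 1 (3.96) and 58-week replicate 3 (0.283). On 36-week replicates 1 and 2 and 58-week replicate 3, miR-3072-5p lay above this lowest signal and was still not called. The part of this lowest signal in its calls was not tested.

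miR-370-3p, made from the Rian span and studied in hepatic lipid metabolism, was not in the test because it was detected on no more than 2 arrays of an age. Detection was called in 2 of the 4-week mice, in 2 of the 8-week mice and in none of the 8 older mice. Its unscaled signals where it was detected were 10.1 and 16.1 at 4 weeks and 7.74 and 7.45 at 8 weeks. On the 8 arrays of slide 2 its unscaled signal was at most 2.97 and its log2 scaled signal was at the floor throughout. The lowest positive scaled signal of any detected miRNA was 0.574 to 1.14 on the 4 arrays that detected miR-370-3p. On the other arrays of slide 1 it was 24.5 and 0.627 (4-week replicates 1 and 4) and 1.27 and 3.62 (8-week replicates 2 and 3). On slide 2 it was 6.12 or more except on 36-week replicate 1 (3.96) and 58-week replicate 3 (0.283). The part of this lowest signal in the calls of miR-370-3p was not tested. In all, 12 members were detected on arrays of 4 and 8 weeks alone, where 11.1% of all miRNAs were. For 9 of them that was 4-week replicate 1, and the other 3 were miR-3072-5p, miR-370-3p and miR-127-3p. Slide 1 held all arrays of these ages and no others, so that slide and age cannot be told apart here.

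miR-487b-5p was detected on 3, 1, 4 and 3 of 4 arrays in order of age. Its log2 scaled signal was 8.00, 1.92, 3.39 and 5.50 at 4 weeks and 1.92, 1.92, 5.09 and 1.92 at 8 weeks. It was 4.04, 4.82, 5.77 and 9.505 at 36 weeks, and 5.98, 6.13, 1.92 and 5.23 at 58 weeks. The means were 4.70 ± 2.64 (SD, n = 4), 2.71 ± 1.58, 6.03 ± 2.42 and 4.81 ± 1.97. Its highest value was on 36-week replicate 4, with an unscaled signal of 730.8, and the next on 4-week replicate 1, with 364.3. At 8 weeks only replicate 3 was above the floor, and this was the array with the highest negative-control SD of that age (3.54).

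miR-485-3p, from a hairpin beside Mirg that has been studied in neurons, was detected on 3, 1, 3 and 3 of 4 arrays. Its log2 scaled signal was 7.50, 1.92, 3.13 and 4.90 at 4 weeks and 1.92, 1.92, 4.38 and 1.92 at 8 weeks. It was 3.28, 4.23, 5.07 and 8.83 at 36 weeks, and 5.32, 5.51, 1.92 and 4.65 at 58 weeks. These rise and fall over the arrays as those of miR-487b-5p do, with 8-week replicate 3 and 36-week replicate 4 high within their ages and 58-week replicate 3 low. The means were 4.36 ± 2.42 (SD, n = 4), 2.54 ± 1.23, 5.35 ± 2.43 and 4.35 ± 1.66. All 4 of its probes were highest on 36-week replicate 4 and then on 4-week replicate 1.

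miR-1188-3p, from the Rian span, was detected on 2, 0, 2 and 3 of 4 arrays. Its log2 scaled signal was 7.62, 1.92, 2.86 and 4.41 at 4 weeks and 1.92, 1.92, 4.12 and 1.92 at 8 weeks. It was 2.89, 3.74, 4.69 and 8.64 at 36 weeks, and 5.15, 5.27, 1.92 and 4.24 at 58 weeks. The same arrays were high and low as for miR-487b-5p and miR-485-3p, and the ages overlap. The means were 4.20 ± 2.50 (SD, n = 4), 2.47 ± 1.099, 4.99 ± 2.55 and 4.14 ± 1.55. It was undetected in the 8-week mice, and the 58-week signal was 3.19-fold the limit set there (2.81-fold to 4.66-fold with 1 array of 8 weeks left out). With 58-week replicate 3 left out it was 5.32-fold, and with 58-week replicate 2 left out 2.46-fold. The same fold was 3.32 for the 4-week signal, which was detected on marked arrays alone, and 1.51 without 4-week replicate 1. Because 58-week replicate 3 and 4-week replicate 2 were raised to the floor, the folds of these ages are no strict lower bounds. For the 36-week signal it was 5.73-fold, and 2.46-fold without 36-week replicate 4. Leaving out an array at the low end moved these up, to 5.62-fold without 4-week replicate 2 and 9.31-fold without 36-week replicate 1. None of these differences passed its test. Over all 285 tested miRNAs the median log2 difference was 0.71 between 58 and 8 weeks, 0.71 between 36 and 8 weeks and -0.72 between 8 and 4 weeks.

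The other members of this pattern were detected on fewer arrays. miR-540-5p, from the Rtl1 span, was detected on 2, 0, 2 and 2 of 4 arrays, and miR-329-3p, from the part of the cluster studied in dendrite growth, on 2, 0, 2 and 1. Both were detected on all 3 marked arrays. miR-134-3p and miR-434-3p, the second from a hairpin antisense to Rtl1, were detected on 4-week replicate 1 and 36-week replicate 4 alone. miR-1193-3p, miR-299b-5p, miR-494-5p, miR-154-5p, miR-679-3p, miR-668-3p and miR-654-3p were detected on 4-week replicate 1 alone, as were 2 further members. Each of these 9 had a higher unscaled signal on 36-week replicate 4, where it was not called detected, such as 263.1 against 118.8 for miR-1193-3p. miR-127-3p, from a hairpin antisense to Rtl1 that is known to act on it in placenta, was called detected on 8-week replicate 4 alone. Its unscaled signal there was 4.42, below its 41.8 on 4-week replicate 1.

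**Figure D3:**
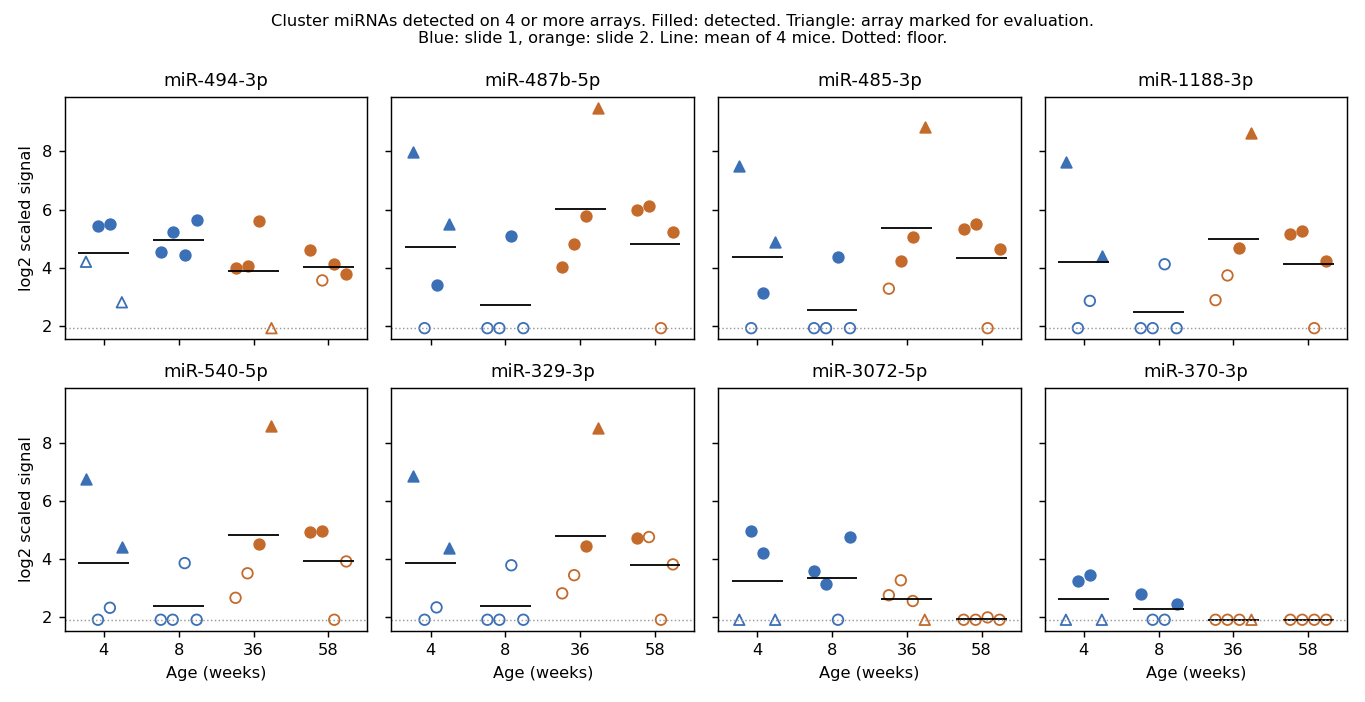
Log2 scaled signal (vertical axis) of the 8 members detected on at least 4 arrays, by age in weeks, 1 symbol per mouse; filled symbols are detected, triangles are the marked arrays, lines are means of 4 mice and the dotted line is the floor of 1.92. miR-487b-5p, miR-485-3p, miR-1188-3p, miR-540-5p and miR-329-3p have their highest triangle on 36-week replicate 4, while miR-3072-5p and miR-370-3p lie highest on unmarked arrays of 4 and 8 weeks.

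Base composition followed the division into patterns, which no step of the member rule used. The 43 members of the first pattern with a sequence held 29.7 ± 9.19% C (SD over members) and 21.7 ± 7.10% G, and 26 of them had more C than G. The 60 of the second held 19.96 ± 6.77% C and 29.7 ± 11.46% G, and 42 of them had more G than C. Over all miRNAs with a sequence, 605 in the first pattern averaged 34.8% C and 19.0% G and 971 in the second 18.0% C and 33.4% G, so that the division by base was seen over the whole array. The 20 detected members, 11 of them detected on marked arrays alone, averaged 33.1% C. The 83 undetected ones with a sequence averaged 21.8% C. Across the 103 members, Spearman's rho between %C and the signal minus that member's own median was 0.60 and 0.57 on the arrays of highest background (36-week replicate 4 and 4-week replicate 1) and -0.65 on 58-week replicate 3. It was positive on the 8 arrays with a negative-control SD above 3 and negative on the 8 below. Members share each array's background and hybridization, and a signal set against its own median must be positive on some arrays and negative on others, so these are descriptions. On the arrays of highest background 44 of the 107 members had their 2 highest signals, and 62 had their lowest signal on 36-week replicate 4. The part of array background in the age values was not tested.

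**Figure D4:**
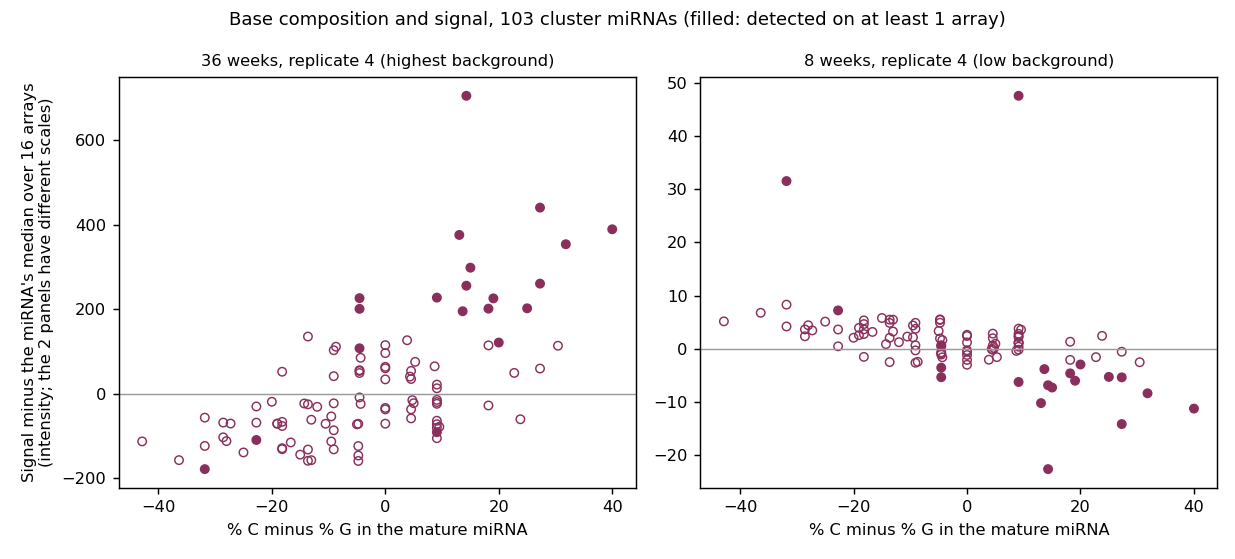
Signal minus the member's median over the 16 arrays, in intensity units (vertical axis, a different scale in each panel), against % C minus % G (horizontal axis) for 103 cluster miRNAs on 36-week replicate 4 (left) and 8-week replicate 4 (right), filled where detected on at least 1 array. C-rich members lie high on the left, where Spearman's rho with %C is 0.60, and low on the right, where it is -0.57.

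Of the 107 members, 5 passed the detection filter (detected on at least 3 of 4 arrays of an age) and entered the test among 285 miRNAs. miR-3072-5p met this filter at 8 weeks alone and miR-1188-3p at 58 weeks alone, so that the filter itself favoured higher values at those ages. No member passed in any comparison of ages over all 16 arrays (limma, Benjamini-Hochberg over 285 miRNAs). In the test for any difference among the ages 0 of 5 members passed, where 0.351% of all tested miRNAs did, and adjusted p ran from 0.477 to 0.598. For the slope with age 0 of 5 passed against 0.351% of all. The pairs gave 0 of 5 members each, against 0.351% of all miRNAs for 36 against 4 weeks and for 58 against 4 weeks, and 0% for the 4 other pairs. At an unadjusted p under 0.05 there was 1 member for the slope, miR-3072-5p (25 of 285 in all), and 2 for 36 against 8 weeks, miR-485-3p and miR-487b-5p (85 of 285 in all). There were none for any difference (13 of 285 in all) or in the other 5 pairs (5 to 15 of 285). The median difference of all 285 miRNAs between 36 and 8 weeks was 0.71 on the log2 scale.

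The slopes of the 5 went both ways. Per doubling of age, the log2 signal of miR-3072-5p changed by -0.33 ± 0.16 (SE, adjusted p = 0.525 in limma), and that of miR-494-3p by -0.21 ± 0.16 (adjusted p = 0.525). Higher values with age were fitted for miR-487b-5p (0.38 ± 0.34, adjusted p = 0.525), miR-485-3p (0.30 ± 0.31, adjusted p = 0.525) and miR-1188-3p (0.26 ± 0.31, adjusted p = 0.556). The median slope of all 285 was 0.12. Within slides the means given above were lower at 8 than at 4 weeks and lower at 58 than at 36 weeks for miR-487b-5p, miR-485-3p and miR-1188-3p, so that their higher values with age lay in the step from 8 to 36 weeks. With slide as a block their slopes were -1.92 ± 1.13, -1.71 ± 1.04 and -1.57 ± 1.05, and that of miR-494-3p was 0.38 ± 0.58. That of miR-3072-5p was -0.25 ± 0.58. For miR-494-3p the means were higher at 8 than at 4 weeks and at 58 than at 36 weeks. Each of these within-slide differences was smaller than the larger SD of the 2 ages.

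The arrays kept changed these calls. Without the 3 marked arrays all 5 members passed for the slope, as did 54.7% of all 285 miRNAs. Of the 4-week arrays this fit kept only replicates 2 and 3, with negative-control SDs of 2.03 and 2.59. The slopes were -0.55 for miR-3072-5p (adjusted p = 0.0222), -0.33 for miR-494-3p (adjusted p = 0.0314), 0.69 for miR-487b-5p (adjusted p = 0.0314), 0.57 for miR-485-3p (adjusted p = 0.0319) and 0.51 for miR-1188-3p (adjusted p = 0.0330), all in limma. In the same fit 1 member, miR-3072-5p, passed between 58 and 4 weeks, where 12.3% of all did. Each slope had the direction it had over 16 arrays. These 5 calls stand beside a fit in which most tested miRNAs passed. In it, miR-3072-5p and miR-1188-3p were tested only through their detection at 8 and at 58 weeks, so their slopes are no independent support. Slide still followed age between the 2 younger and the 2 older ages. With limma's array weights, which count noisy arrays less, 5 of 5 passed for the slope (65.6% of all), 4 for any difference (76.5%), 5 for 58 against 4 weeks (62.1%), 3 for 36 against 8 (63.2%), 5 for 58 against 8 (67.7%) and 1 for 58 against 36 (15.1%).

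On the 8 arrays with a negative-control SD under 3, a limit chosen after seeing the data, miR-494-3p and miR-3072-5p separated younger from older arrays. There miR-494-3p lay between 4.56 and 5.63 on the log2 scale on the 5 arrays of 4 and 8 weeks and between 3.78 and 4.13 on the 3 of 36 and 58 weeks, with detection on all 8. miR-3072-5p lay between 3.15 and 4.96 on the younger 5, all with detection, and between 1.92 and 2.76 on the older 3, none with detection. It was among the tested miRNAs only through its detection at 8 weeks, so its separation and slope are no independent support for a fall with age. The younger and older arrays did not overlap for these 2, where 13.7% of all 285 miRNAs lay higher on all 5 younger arrays. The reverse held for 7.37% of all and for 0 of the 5 tested members. The slopes were -0.42 for miR-494-3p (adjusted p = 0.0487 in limma) and -0.64 for miR-3072-5p (adjusted p = 0.0375), and 2 of 5 members passed, where 8.77% of all did. miR-370-3p was detected on 4 of the younger 5 arrays and on none of the older 3. miR-487b-5p, miR-485-3p and miR-1188-3p overlapped between the younger and older arrays. The 5 younger arrays lay on slide 1 and the 3 older on slide 2. The older 3 were 36-week replicate 1 and 58-week replicates 3 and 4. Their negative-control SDs were 2.76, 2.23 and 2.90, against 1.82 to 2.59 on the younger 5, so that background still differed within this subset. Its part in the separation was not tested.

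**Figure D5:**
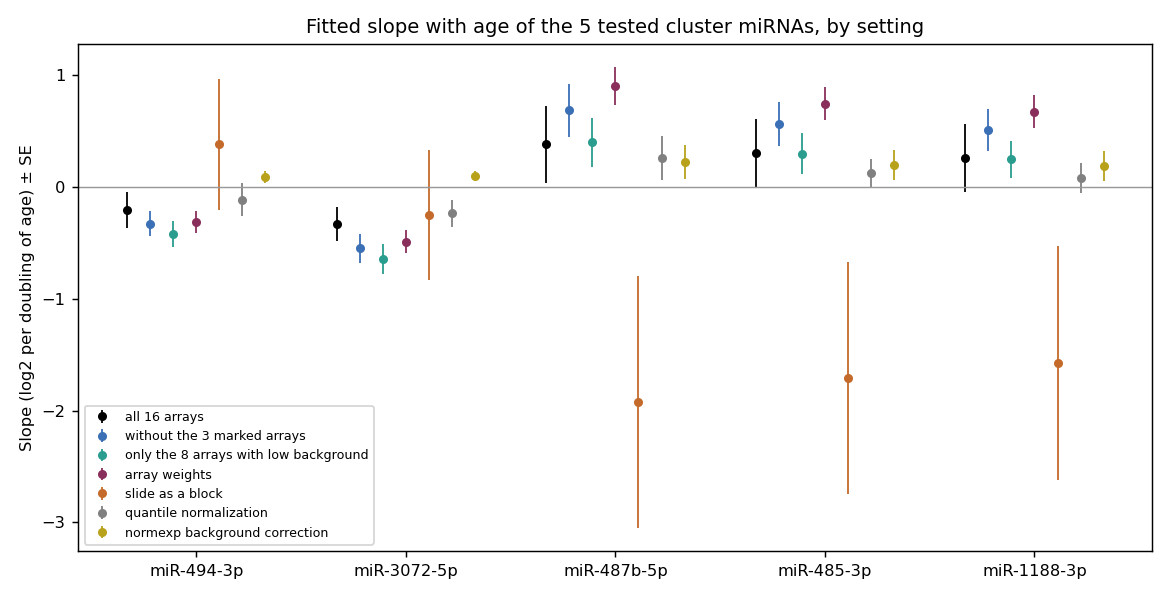
Fitted slope (log2 per doubling of age, points, with bars of 1 SE) of the 5 tested members over all 16 arrays and under 6 other settings. Slopes of miR-487b-5p, miR-485-3p and miR-1188-3p are above 0 except with slide as a block, where they fall to between -1.57 and -1.92, and those of miR-494-3p and miR-3072-5p are below 0 except with normexp and, for miR-494-3p, the slide block.

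The label of the samples was checked with tissue miRNAs. All 7 miRNAs chosen to mark blood, liver and endothelium were detected on 15 or 16 arrays, with miR-451a of red cells, miR-486a-5p and miR-223-3p of myeloid cells on all 16. Of 5 brain miRNAs, miR-124-3p, miR-9-5p, miR-9-3p and miR-219a-5p were detected on none, and miR-128-3p, which is not limited to brain, on 11. Of 3 muscle miRNAs, miR-133a-3p was detected on 16 arrays, miR-1a-3p on 12 and miR-206-3p on none. The 5 other miRNAs of the domain on the array, both arms of miR-770 and of miR-1247 and miR-1906, were detected on none of the 16.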

How the data were processed

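The deposited values are spot intensities from the authors' Agilent Feature Extraction (version 11.5.1.1 per the file headers, 11.5 in the submitters' processing notes), 1 file per array and 58594 spots each, already background-subtracted, with deposited flags for outlier spots, spots well above background and detected miRNAs (other values). How the detection call was made is not given in the sources used here.

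Intensities were averaged over unflagged spots of a probe and then over probes of a miRNA. Arrays were scaled to give the 24 miRNAs that every array detected an equal 75th percentile. Scaled values under 3.79, the across-array median of the dimmest detected signal, were raised to it before taking log2. The 285 miRNAs detected on at least 3 of 4 arrays of an age were fitted together with limma 3.58.1 in R 4.3.3, with 1 mean per age over all arrays or a slope per doubling of age. P-values were adjusted by Benjamini-Hochberg over the 285 at a threshold of 0.05, and the fit was tested on simulated data. Where a miRNA was undetected at an age, a fold was taken from the brighter age's mean. It was set against the lowest detected signal, or the miRNA's own if higher, per array. Values of the brighter age under the floor were raised to it, and with any such value the fold is no strict lower bound. Patterns and composition use unscaled intensities, and the pattern counts were the same after scaling. Signals are compared across arrays within a miRNA and not between miRNAs. The labels give 4 mice per age, and 4 mice limit the precision.

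Tested members are named in full, then the 12 others detected on the most arrays, with ties by mean scaled signal; miR-127-3p was named after its values were seen. Sequences are shown for members detected on at least 3 arrays. The members, lists and rules were chosen with earlier results of these data known.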

Additional observations from a re-analysis of the deposited data

Results flagged for a closer look

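Of 28 sets of 4 values from mice of 1 age, 7 had 1 array apart from its 3 fellows. In 4 of the 7 those fellows were tied at the floor, so that any value above it stands apart and no chance rate applies. In the other 24 sets there were 3, where chance gives about 1.2. These are the members detected on 4-week replicate 1 and the 2 SDs below. On 4-week replicate 1, 16 members were detected, against 3 to 5 on the other 3 arrays. On 8-week replicate 3, miR-487b-5p was 5.09, miR-485-3p 4.38 and miR-1188-3p 4.12 on the log2 scale, with each of the other 3 arrays at the floor. The SD of the negative-control spots on that array was 3.54, also apart from the others of its age (1.82 to 2.01). On 36-week replicate 4 this SD was 59.3, where its 3 fellows had 2.76 to 4.39. miR-3072-5p was 2.003 on 58-week replicate 3, with the other 3 at the floor.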

How the results depend on the processing

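Over 31 alternatives, the slopes of miR-487b-5p, miR-485-3p and miR-1188-3p were positive in 30 each, that of miR-3072-5p negative in 30 and that of miR-494-3p negative in 29. With slide as a block they were -1.92, -1.71 and -1.57 for the first 3 and 0.38 for miR-494-3p. With normexp, run with an offset of 50 on each spot's deposited median intensity and so also from another input than the processed intensity, they were 0.098 for miR-3072-5p and 0.089 for miR-494-3p. Members passing for the slope numbered 5 without the 3 marked arrays, 5 with array weights and 2 on the 8 arrays of low background (added after seeing the data), and 0 in the other 28. With array weights, whose estimation stopped before its tolerance, 65.6% of all miRNAs passed for the slope, and members passing numbered 4 for any difference, 5 for 58 against 4 weeks, 3 for 36 against 8, 5 for 58 against 8 and 1 for 58 against 36. Without the marked arrays 1 passed for 58 against 4 weeks. The cause was not tested. With 1 array left out, 0 members passed in any comparison. The slopes then ran from 0.24 to 0.64 for miR-487b-5p, 0.16 to 0.54 for miR-485-3p, 0.12 to 0.52 for miR-1188-3p, -0.42 to -0.24 for miR-3072-5p and -0.33 to -0.14 for miR-494-3p. Members detected on at least 1 array numbered 20 at most and 11 without 4-week replicate 1, 10 where most of a probe's spots had to be well above background, 10 on at least 2 arrays and 9 without the marked arrays. Per array they averaged 4.33 to 8.67 at 4 weeks, 2.67 to 3.33 at 8, 3.67 to 5.33 at 36 and 3 to 4.67 at 58 with 1 array left out, and 3.5, 2, 2 and 1.25 at 4, 8, 36 and 58 weeks by the rule on spots. Replicate numbers were not taken to pair the arrays. Of 24 same-numbered pairs 11 had deviations correlated over 0.1, with r from -0.896 to 0.812. Deviations common to the miRNAs of an array enter these correlations, so they cannot settle whether the arrays were paired. With the replicate block 0 members passed in any comparison and the slope of miR-487b-5p was 0.38, with no call changed. Scaling on the 75th percentile over all miRNAs was not run, because that percentile was 0 or lower on 1 array. The 102 members that were not tested have no test of age here.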
